A study of Mus musculus with 2 samples.

Results

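Molecular chaperones of the cytosol, the nucleus and the mitochondria were examined in BV2, a mouse microglial cell line kept in DMEM or DMEM/F12. According to the methods, all cells were plated in DMEM/F12 with fetal bovine serum, and on the following day this was exchanged for DMEM or for fresh DMEM/F12 for 1 d. Total RNA was hybridized to Affymetrix Mouse Gene 1.0 ST arrays, with 1 array per medium. DMEM/F12 is DMEM blended with the nutrient mixture F-12, and the comparison asked which genes differ between the basal and the richer medium. BV2 is an immortalized line, and both arrays come from this 1 line. With 1 array per medium there was no replicate error and no test, so each difference below compares these 2 arrays and not the media in general. A lower value can reflect less of an mRNA per cell or fewer cells that hold it, and these cannot be told apart.

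The list holds 49 genes of chaperones, their partners and heat shock factors. Its members were picked by gene name, with earlier results of these same arrays known, so the list is not independent of the data. Of these, 46 had a transcript cluster (a group of probes that measures a gene or a part of one) annotated with that gene symbol alone, out of 19938 genes measured in this way. Hsp90ab1 and Hsf1 were not analysed here, and Hspa1b shared its cluster with Hspa1a. The deposited values are log2 signals, and a negative difference means a lower value with DMEM/F12 than with DMEM. Background was the 95th percentile of 1243 clusters for receptors of smell, taste and pheromones, at 4.15 in DMEM and 4.17 in DMEM/F12. All 46 chaperones measured were above it on at least 1 array, compared with 13225 of all genes. Of 12 markers of microglia and macrophages, 10 were above background, Aif1 and P2ry12 were not, and 9 of 19 markers of neurons, astrocytes, oligodendrocytes and fibroblasts were above it. The microglial gene Tmem119 was lower in DMEM/F12 (6.71 in DMEM and 6.05 in DMEM/F12), and Trem2 was higher (9.23 and 9.63).

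Many chaperones hold unfolded proteins and release them in cycles driven by ATP. HSP70 proteins take up short hydrophobic stretches with the help of J proteins, which bring substrates, and of nucleotide exchange factors, which let them go. HSP90 acts later on kinases and steroid receptors, and the ring-shaped chaperonins CCT (cytosol) and HSP60 with HSP10 (mitochondria) enclose whole proteins. Many of these genes are driven by the transcription factor HSF1 when misfolded proteins accumulate.

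More chaperone genes had a lower value in DMEM/F12 than a higher one, by small amounts. Of the 46 genes, 31 were lower, 12 were higher and 3 had the same value. This was 67.4% lower, whereas 45.5% of all genes and 47.4% of genes above background were lower, and 26.1% higher, whereas 47.2% of all genes were higher. The median log2 difference was -0.075 (from -0.60 to 0.44), beside 0.00 over all genes. At a threshold of 1.1-fold, 20 chaperones (43.5%) were lower and 3 (6.52%) were higher, beside 25.5% and 27.6% of all genes. At 1.2-fold, which is 0.263 on the log2 scale, 6 chaperones (13%) were lower (Hspb11, Hspb8, Hspe1, Grpel1, Dnajc7 and Hspa4l), close to the 10.5% of all genes and the 9.67% of genes above background. Only Hspa2 was higher at 1.2-fold (2.17%, beside 11.2% of all genes). Hspb8 was below background in DMEM/F12, and with that value raised to background its difference was -0.24, short of 1.2-fold, which leaves 5 genes. The excess of lower values was thus in differences of between 1.1-fold and 1.2-fold.

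**Figure D1:**
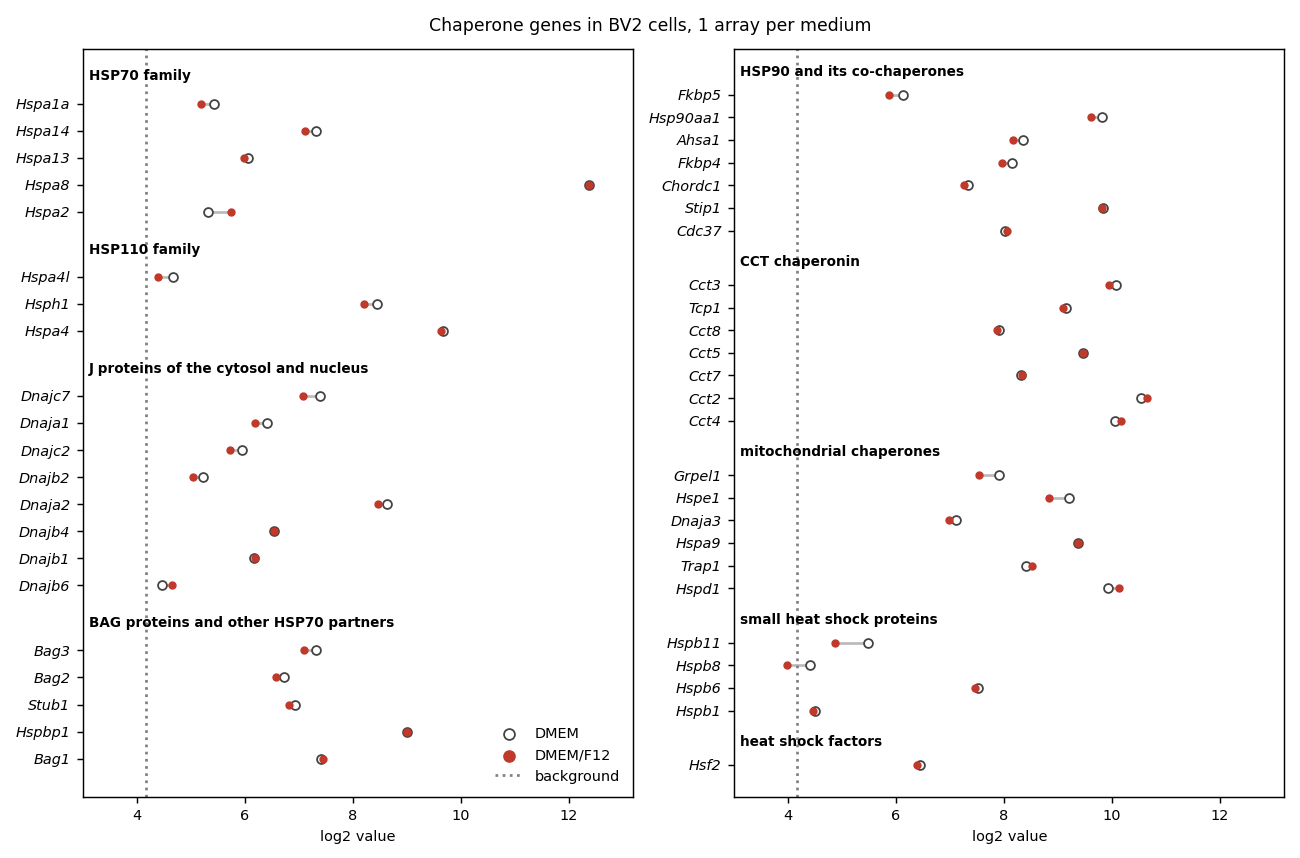
Signal on the log2 scale (x axis) for the 46 measured chaperone genes (y axis, grouped by role) with DMEM (open circles) and with DMEM/F12 (red circles), joined by a gray line; the dotted line marks background. The red circle lies to the left of the open circle in 31 genes, most clearly for Hspb11, and to the right in 12, most clearly for Hspa2.

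The median was further below 0 among the chaperones of lower signal. The 26 genes with a mean log2 value below 8 had a median difference of -0.14, with 21 lower (80.8%) and 4 higher (15.4%). Over 11125 genes above background in that range the median was 0.00, with 46.6% lower and 48.9% higher. The 20 genes at 8 or more had a median of -0.005, with 10 lower (50%) and 8 higher (40%). All 2100 genes at that level had a median of -0.01, with 51.2% lower and 46.1% higher. At 1.1-fold, however, 7 of these 20 (35%) were lower and 1 (5%) was higher, beside 25.2% and 20.4% of all genes at that level. Of these 20 genes, 6 were CCT subunits. Without the 7 CCT subunits the median over the other 39 chaperones was -0.13.

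**Figure D2:**
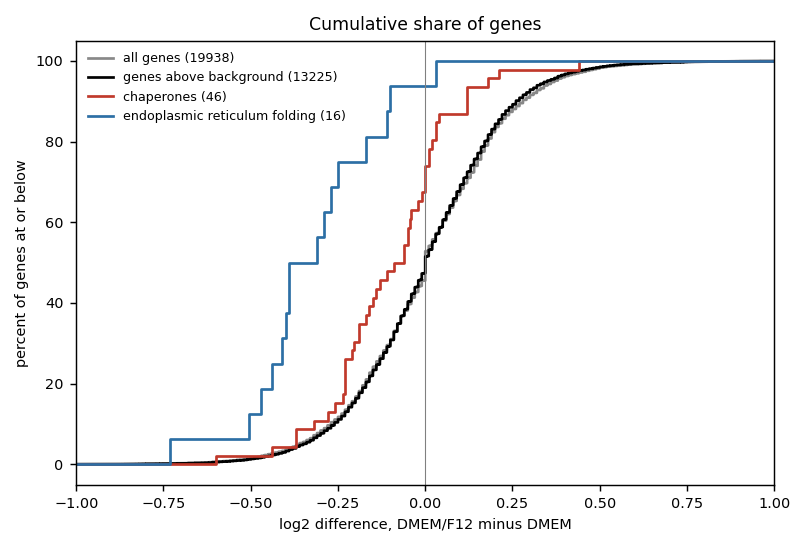
Percent of genes (y axis) whose log2 difference between the media (DMEM subtracted from DMEM/F12) was at or below the value on the x axis, for all genes, genes above background, the 46 chaperones and 16 genes of folding in the endoplasmic reticulum. Around 0 the chaperone line lies above that of all genes, and the line of the endoplasmic reticulum genes lies above both.

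The role groups are small. Their counts are to be read beside the shares of all genes, 45.5% lower and 47.2% higher. Of the HSP70 family, 3 of 5 measured genes were lower, 1 was higher and 1 did not differ. Hspa8, the constitutive HSP70 of the cytosol, had the same mean log2 value of 12.38 on both arrays. Its 3 clusters differed by -0.04, -0.01 and 0.05, so this abundant chaperone was level in each of them. Hspa1a, the stress-inducible HSP70, differed by -0.23 (5.42 in DMEM and 5.19 in DMEM/F12). A brighter cluster that the annotation gives to both Hspa1a and its near copy Hspa1b had 7.62 and 7.42. The inducible genes therefore had a similar difference (-0.20) in the shared cluster. Hspa14, an HSP70 that works at the ribosome, differed by -0.21 (7.32 and 7.11). Dnajc2, the J protein that partners HSPA14 at the ribosome, differed by -0.23 (5.95 and 5.72). Both genes of this ribosome-associated pair were thus lower, by nearly the same amount. This was not particular to the pair, because Hspa1a, Hsph1 and Bag3 also differed by -0.23. Hspa13, a short microsomal HSP70, differed by -0.06 (6.05 and 5.99). Hspa2, best known from the testis, was the one chaperone higher by more than 1.2-fold, by 0.44 or 1.36-fold (5.31 and 5.75).

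The 3 HSP110 genes, whose proteins act as nucleotide exchange factors of HSP70, were all lower, beside 45.5% of all genes. Hspa4l differed by -0.28 (4.67 and 4.39), just past 1.2-fold and close to background on both arrays. Hsph1, which encodes HSP105 and is heat inducible, differed by -0.23 (8.44 and 8.21). Hspa4, the constitutive member, differed by only -0.04 (9.67 and 9.63).

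Among the 8 J proteins of the cytosol and nucleus, 5 were lower (62.5%, beside 45.5% of all genes), 2 were higher and 1 did not differ. Their median was -0.175. Dnajc7, whose protein binds both HSP70 and HSP90, had the largest difference, -0.32 (7.40 and 7.08). Dnaja2 differed by -0.16 (8.63 and 8.47), and Dnajb2 by -0.19 (5.22 and 5.03). These were lower by similar amounts, but the main stress-inducible J protein gene Dnajb1 was not, with 6.16 in DMEM and 6.19 in DMEM/F12. Dnajb4 had 6.53 on both arrays. Dnaja1, whose protein brings substrates to HSP70 in the cytosol, was measured by 2 clusters, of which one had 7.89 and 7.52 (-0.37) and the other, which was dimmer, had 4.94 and 4.84 (-0.10). Both were lower, and their mean difference was -0.235. A brighter cluster that the annotation gives to Dnaja1 together with Mir207 had 8.27 and 8.32 (0.05), and with it the mean over the 3 clusters was -0.14. Dnajb6, which encodes a suppressor of protein aggregation, gave opposite signs in different clusters. Its own cluster was dim and higher in DMEM/F12 (4.47 and 4.65, a difference of 0.18). The annotation gives 4 further clusters to Dnajb6 together with its pseudogene Gm4247, and these were bright and lower, by -0.30 to -0.33.

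Other partners of HSP70 showed small differences. Bag3, whose protein delivers substrates to autophagy, differed by -0.23 (7.32 and 7.09). Hspb8, the small heat shock protein that forms a complex with BAG3, differed by -0.44 (4.41 and 3.97), and its DMEM/F12 value was below background. Both genes of this complex were lower, although Hspb8 was hardly above background. Bag2, an inhibitor of the ubiquitin ligase CHIP, differed by -0.15 (6.73 and 6.58), and Stub1, which encodes CHIP itself, by -0.11 (6.93 and 6.82). Bag1, a nucleotide exchange factor that links HSP70 to the proteasome, was nearly level (7.41 and 7.44). Hspbp1, another exchange factor, had a log2 value of 9 on both arrays.

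Of the 7 measured genes of HSP90 and its co-chaperones, 6 were lower (85.7%, beside 45.5% of all genes) and 1 was higher. Their median was -0.17. Hsp90aa1, the stress-inducible HSP90 of the cytosol, had a mean log2 value of 9.82 with DMEM and 9.62 with DMEM/F12. Its 3 clusters differed by -0.21, -0.20 and -0.20, which is 1.15-fold lower on average. Ahsa1, which encodes the activator of the HSP90 ATPase, differed by -0.19 (8.35 and 8.16). The inducible HSP90 gene and its activator thus differed by similar amounts, as did other chaperones such as Hspa14 (-0.21) and Dnajb2 (-0.19). Fkbp5 and Fkbp4 encode immunophilins of the steroid receptor complex. Fkbp5, a well-known target of the glucocorticoid receptor, differed by -0.26 (6.12 and 5.86), just short of 1.2-fold. Fkbp4 differed by -0.17 (8.14 and 7.97). Chordc1, a stress-inducible HSP90 partner, differed by -0.09 (7.34 and 7.25). Stip1, whose protein HOP joins HSP70 to HSP90, was level (9.83 and 9.82), as was the kinase adaptor Cdc37 (8.02 and 8.06).

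The subunits of the CCT chaperonin, which folds actin and tubulin, lay close together around 0. Of the 7 subunit genes, 3 were lower and 4 were higher, with a median of 0.01, and all differed by at most 0.14. Cct2 was higher by 0.12 (10.54 and 10.66), as was Cct4 (10.05 and 10.17). Cct3 was the lowest with -0.14 (10.08 and 9.94). The other subunits were nearly level, with Tcp1 at -0.05 (9.15 and 9.10), Cct8 at -0.02 (7.90 and 7.88), Cct5 at 0.01 (9.46 and 9.47) and Cct7 at 0.02 (8.32 and 8.34). The SD of the differences between the 7 subunits was 0.09, beside 0.23 over all genes. At a mean log2 value of 8 or more, the SD was 0.20 over all genes and 0.14 over the 20 chaperones.

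Mitochondrial chaperones differed in both directions, with 3 of 6 lower and 3 higher. Hspe1, which encodes the co-chaperonin HSP10, was 1.29-fold lower in DMEM/F12. Its 2 clusters had 9.19 and 9.22 in DMEM, and 8.84 and 8.83 in DMEM/F12. Hspd1 encodes the chaperonin HSP60, on which HSP10 forms the lid. Its 2 clusters had 9.81 and 10.05 in DMEM, and 10.04 and 10.24 in DMEM/F12. This is 1.16-fold higher. The chamber and its lid thus had opposite signs, and each sign was seen in both clusters of its gene. Clusters of 1 gene share the RNA sample of each medium and are not replicates. Whether their probes also share sequence was not examined, so agreement between them is not independent support. Of all genes, 4.40% had a lower difference than Hspe1, and 16.4% had one at least as high as Hspd1. Grpel1, which encodes the nucleotide exchange factor of mitochondrial HSP70, differed by -0.37 (7.90 and 7.53). Hspa9, the mitochondrial HSP70 gene itself, was level (9.37 and 9.38). Dnaja3, its J protein partner, differed by -0.13 (7.12 and 6.99), and Trap1, the mitochondrial HSP90, by 0.12 (8.40 and 8.52). Outside the list, the J protein gene Dnajc19 was lower (-0.32). The second exchange factor gene Grpel2 (0.00) and the J protein gene Hscb (0.09) were not lower. The partners of mitochondrial HSP70 named here thus did not share a direction.

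**Figure D3:**
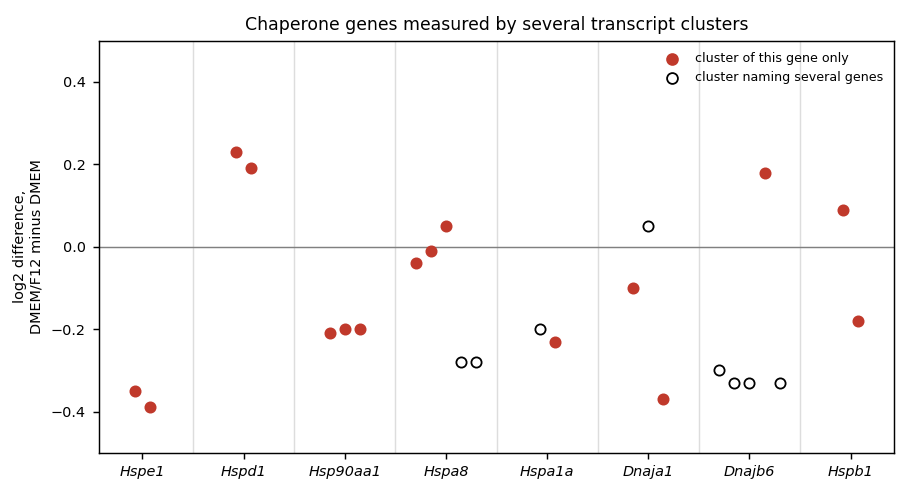
Log2 difference between the media (y axis, DMEM subtracted from DMEM/F12) for each transcript cluster (dots) of 8 chaperone genes (x axis); filled dots are clusters annotated with that gene alone and open dots are clusters annotated with several genes. The 2 Hspe1 clusters lie at -0.35 and -0.39, the 2 Hspd1 clusters at 0.23 and 0.19, and the Dnajb6 clusters on both sides of 0.

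Hspd1 and Hspe1 are neighbours in the genome and are read in opposite directions from a shared promoter. That promoter holds a heat shock element, the binding site of heat shock factors, which is shown here because it belongs to both genes and can be read on either strand. The element was searched as 3 alternating units, GAANNTTCNNGAA or TTCNNGAANNTTC, which together cover both strands and may overlap each other. The windows run from 250 bases before to 50 bases after each start site in RefSeq (GRCm38.p6). Such a match was present in 0.662% of 27025 genes with a window. Of the 41 chaperones with a window, 5 had one (12.2%), and these are printed 5′ to 3′ on the strand of the gene, with the matched units in capitals.
Hspe1 (chr1:55088053-55088082, plus strand): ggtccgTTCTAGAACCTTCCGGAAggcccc
Hspd1 (chr1:55088053-55088082, minus strand): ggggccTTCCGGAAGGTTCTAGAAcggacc
Dnajb6 (chr5:29735844-29735872, plus strand): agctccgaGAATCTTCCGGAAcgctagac
Chordc1 (chr9:18292260-18292288, plus strand): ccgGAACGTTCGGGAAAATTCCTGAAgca
Hsph1 (chr5:149636280-149636308, minus strand): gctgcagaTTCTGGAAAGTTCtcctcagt

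The Hspe1 and Hspd1 lines are the same site read on opposite strands, with 2 overlapping matches over 18 bases. It ends 71 bases before the start of Hspe1 and 126 bases before the nearer start of Hspd1. In Chordc1, 3 overlapping matches span 23 bases across the start site, and in Hsph1 the match begins 15 bases after it. The 5 genes with a 3-unit match did not share a direction. Hspe1, Hsph1 and Chordc1 were lower (by -0.37, -0.23 and -0.09), and Hspd1 and Dnajb6 (own cluster) were higher, by 0.21 and 0.18. The stress-inducible genes Hspa1a and Dnajb1 had no 3-unit match. A gene without an exact match in its window can still hold a heat shock element, and this was not searched. A match of 2 units, GAANNTTC or TTCNNGAA, was present in 18 of the 41 chaperones (43.9%) and in 17.0% of all genes. Of the 40 chaperones with a window and a value, the 17 with such a match had a median difference of -0.09 (11 lower, 5 higher). The 23 without it had a median of -0.13 (17 lower, 5 higher). Both sets thus held more lower than higher genes, as did the whole list (67.4% lower and 26.1% higher, beside 45.5% and 47.2% of all genes). The windows of Hspa1a and Hspa1b, which share the bright cluster above, were identical in 296 of 300 bases.

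By the mean over clusters, the 4 genes named as small heat shock proteins were all lower, beside 45.5% of all genes. Only Hspb11 was lower by more than 1.5-fold. Hspb11 differed by -0.60 (5.47 in DMEM and 4.87 in DMEM/F12), and 0.62% of all genes were lower than this. Despite its name, its product is the intraflagellar transport protein IFT25 and not a typical chaperone. Hspb6 differed by -0.05 (7.51 and 7.46). Hspb1, which encodes HSP27 and binds actin as well as unfolded proteins, had one cluster at 0.09 (4.49 and 4.58) and another at -0.18 (4.52 and 4.34). Both of its clusters were close to background, and they did not share a sign, so its mean of -0.045 gives no settled direction. Hsf2, the measured heat shock factor gene, differed by -0.06 (6.45 and 6.39).

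Differences also varied between clusters of 1 gene, which share the RNA of each medium, so that their range does not hold the variation between cultures. Over 710 genes with several clusters above background, the difference ranged by a median of 0.12 between clusters of a gene, with a 90th percentile of 0.43. The ranges for Hsp90aa1 (0.01), Hspe1 and Hspd1 (0.04 each) and Hspa8 (0.09) were below that median, and those for Dnaja1 and Hspb1 (0.27 each) were above it. It was not examined whether clusters with such small ranges hold probes of the same sequence. Of the 46 chaperones, 40 had a single cluster.

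Related genes that are not in the list did not as a whole show more lower than higher values outside the endoplasmic reticulum. These were 50 measured genes of prefoldin, other CCT subunits, other co-chaperones, other J proteins, mitochondrial proteases and the heat shock response. Of the 50, 19 (38%) were lower and 25 (50%) were higher, with a median of 0.01. Of all genes, 45.5% were lower and 47.2% were higher, and the counts in each list below are to be read beside these shares. Prefoldin and phosducin-like genes, whose proteins pass substrates to CCT, were split evenly, with Pfdn6 at -0.60 and Pdcl at 0.49. The remaining CCT subunit above background, Cct6a, differed by -0.03, as close to 0 as the subunits in the list. Other cytosolic co-chaperones had a median of 0.00, with 5 of 13 lower and 5 higher. Unc45a, a myosin chaperone, differed by -0.27 and the HSP90-associated phosphatase gene Ppp5c by -0.22. Other J proteins had a median of -0.13, with 7 of 10 lower, among them Dnajc9 (-0.39), a histone chaperone, whereas Dnajb14 was higher (0.63). Mitochondrial proteases and import factors had 8 of 12 genes higher and 2 lower, with a median of 0.045. Clpp, the subunit of a matrix protease, differed by -0.33 and the import motor gene Timm44 by 0.31. Other heat shock response genes had 4 of 5 higher and none lower, with the autophagy receptor gene Sqstm1 at 0.26 and Hsbp1 at 0.19.

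Folding genes of the endoplasmic reticulum were lower almost throughout. Of 16 genes, 15 were lower (93.8%, beside 45.5% of all genes) and Hspa5, which encodes BiP, was level (0.03). The median was -0.35, and 11 (68.8%) were lower by 1.2-fold or more, beside 10.5% of all genes. Dnajb11, the J protein of BiP, differed by -0.73, and the disulfide isomerase gene Pdia4 by -0.505. In the cytosolic and mitochondrial list only Hspb11 lay beyond -0.505.

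**Figure D4:**
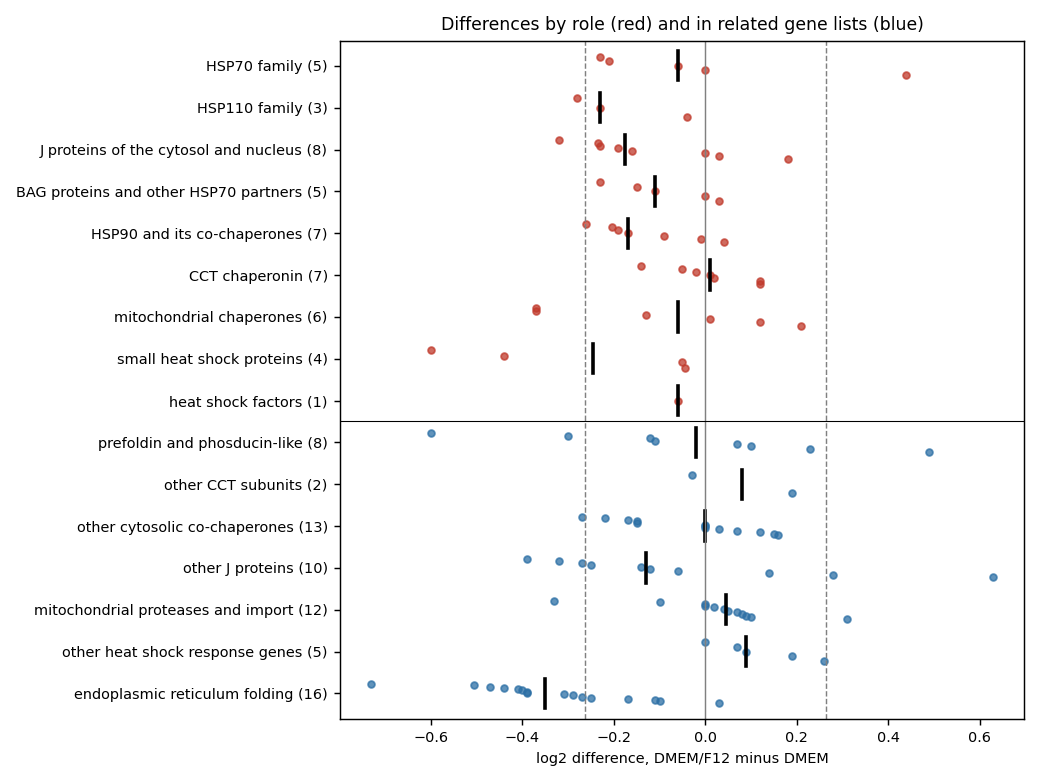
Log2 difference between the media (x axis, DMEM subtracted from DMEM/F12) for each gene (dots) in the 9 role groups of the chaperones (red) and in 7 related gene lists (blue), with the number of measured genes in parentheses. Black bars are medians, dashed lines mark 1.2-fold, and the CCT chaperonin lies at 0.01 while the endoplasmic reticulum list lies at -0.35.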

How the data were processed

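The authors deposited log2 values with 2 decimals for 28944 transcript clusters. Per the methods and the submitters' processing notes, these were made with Expression Console and the Transcriptome Analysis Console of Affymetrix. Their versions, the summarization, any normalization between arrays and the genome build were not given in the sources used here. Array medians were 4.75 (DMEM) and 4.77 (DMEM/F12).

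Symbols came from the platform annotation, where 21789 clusters carry 1 symbol, 1621 several and 5534 none. A gene took the mean over its single-symbol clusters. All 46 measured members matched a RefSeq gene by Entrez number. No further normalization or filter was applied. Members, role groups, related lists, thresholds and alternatives were chosen with earlier results of these data known. All measured members are named. From each related list, the rule names the 2 genes above background that differed most. Hspa5, Grpel2, Hscb, Dnajc19, Tmem119 and Trem2 were picked after their values were seen. Lists are described by counts and medians. Precision is limited by the number of arrays. The steps were tested on simulated data in which the planted shifts were larger than 1.2-fold. Recovery of shifts between 1.1-fold and 1.2-fold was not tested. The tools were Python 3.11.15, numpy 2.4.6, pandas 2.3.3, statsmodels 0.14.6 and matplotlib 3.10.9. Alternatives were 3 scalings, background filters, cluster choice and fold thresholds.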

Additional observations from a re-analysis of the deposited data

Results flagged for a closer look

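Signal above background was also found in clusters that the annotation gives to a chaperone gene together with another gene, which the comparisons above leave out. The 4 clusters of Dnajb6 and Gm4247 (10354404, 10395976, 10481868 and 10585533) had their higher log2 value in DMEM, at 10.41, 10.03, 10.01 and 9.97, and were lower in DMEM/F12 by -0.30, -0.33, -0.33 and -0.33. The cluster of Hspa1a and Hspa1b (10450367) had 7.62 in DMEM and differed by -0.20. The cluster of Mir207 and Dnaja1 (10504000) had 8.32 in DMEM/F12 and differed by 0.05, unlike both clusters of Dnaja1 alone. The clusters 10584576 and 10584578, given to Hspa8 and to the small nucleolar RNA genes Snord14c and Snord14d, had the same values, 7.62 in DMEM and 7.34 in DMEM/F12, and so differed by -0.28 where Hspa8 alone was level. Which of the named transcripts gave these signals was not tested.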

How the results depend on the processing

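No paired analysis was possible because there was 1 array of each kind. Shifts of over 0.1 (log2) in a value, or of over 1.5 times in a count, were treated as changes. The limit of 0.1 is larger than the median over the chaperones (-0.075), so a median of 0 would not have counted as a change. The median over the chaperones stayed between -0.112 (clusters that name several genes included, 47 genes) and -0.072 (loess curve subtracted, span 0.3) under 7 alternatives, with -0.095 after median centring and -0.076 after quantile normalization. Not all of these could move it. The filter for members above background kept all 46 and so repeated the main result. Raising values to background altered only Hspb8 among the members and left the median at -0.075. The counts of 31 lower and 12 higher by any amount became 36 and 9 after median centring, where 54.2% of all genes were lower. They became 31 and 15 after quantile normalization and with the loess curve subtracted, where 49.2% and 49.7% of all genes were lower. With clusters of several genes included they were 34 and 11 of 47. The subsets chosen after seeing the data gave medians of -0.13 without CCT and -0.005 for the brighter genes. The count of genes lower at 1.2-fold was 5 to 7 under these 7 settings, and the count higher was 1. The threshold itself moved both counts, to 20 lower and 3 higher at 1.1-fold, and to 1 lower and 0 higher at 1.5-fold. Of single genes, none past 1.2-fold changed sign. With clusters of several genes included, Dnajb6 became -0.222, Hspa8 -0.112 and Dnaja1 -0.14. With the brightest cluster, Dnaja1 became -0.37 and Hspb1 0.09. With values below background raised to it, Hspb8 became -0.24 and was no longer past 1.2-fold.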
